A study of Homo sapiens with 16 samples.

Results

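The BCL2 family genes BBC3, PMAIP1, BCL2L11, BID, BAX, BAK1, BCL2, BCL2L1, MCL1 and BCL2A1 were followed in papillary thyroid carcinoma cells in which p53 was released from its repressors. These 10 genes were taken by symbol from the 25369 rows of the count table, 6 of them as members that promote death and 4 as members that protect. TPC1 and K1 are established human lines that express wild type p53, the first grown in RPMI and the second in DMEM, each with fetal bovine serum. Cells of both lines received 0.2% DMSO, 10 µM nutlin-3a (nutlin), 25 µM GSK2830371 or nutlin and GSK2830371 together (the combination) for 24 h, and each of these groups holds 2 libraries. Nutlin keeps MDM2 off p53, and GSK2830371 inhibits the phosphatase PPM1D. Each line stands for a single tumor, K1 being a derivative of another line, and RNA of a whole culture does not tell fewer cells of a kind from less RNA per cell.

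Proteins of this family decide whether the outer membrane of the mitochondrion stays closed. The effectors BAX and BAK1 form pores that release cytochrome c, the guardians BCL2, BCL-xL (the main product of BCL2L1), MCL1 and BFL1 (the product of BCL2A1) bind and restrain them, and the BH3-only proteins PUMA (BBC3), NOXA (PMAIP1), BIM (BCL2L11) and BID displace the guardians or activate the effectors. BBC3, PMAIP1 and BAX are textbook transcriptional targets of p53, and PMAIP1 and BCL2L11 are also known to be induced through ATF4 and its partner DDIT3 when the eIF2alpha kinases are active. Much of the control of these proteins lies in cleavage, phosphorylation and turnover, which RNA levels do not show.

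The promoters shown are those of the BH3-only genes with the clearest responses, BBC3 and PMAIP1, and of BAK1 and BCL2A1, which held a motif that was searched. They are taken from RefSeq on GRCh38.p14, from 250 bases before to 50 bases after the annotated start, 5′ to 3′ on the strand of the gene. BBC3 lies at chr19:47232618-47232917 on the minus strand, PMAIP1 at chr18:59899746-59900045 on the plus strand, BAK1 at chr6:33580227-33580526 on the minus strand and BCL2A1 at chr15:79971147-79971446 on the minus strand. Capitals mark matches to TGACGT, a core of CREB and ATF sites, in PMAIP1, and to the p53 decamer, which is not a full p53 site, in BAK1. In BCL2A1 they mark TGATGNAA, a core of the composite site of ATF4. All were read on both strands.
BBC3: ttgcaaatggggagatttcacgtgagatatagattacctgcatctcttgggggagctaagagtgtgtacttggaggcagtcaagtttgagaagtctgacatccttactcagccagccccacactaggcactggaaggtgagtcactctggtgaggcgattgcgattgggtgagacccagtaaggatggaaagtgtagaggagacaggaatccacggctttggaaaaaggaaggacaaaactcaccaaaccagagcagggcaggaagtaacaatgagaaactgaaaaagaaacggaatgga
PMAIP1: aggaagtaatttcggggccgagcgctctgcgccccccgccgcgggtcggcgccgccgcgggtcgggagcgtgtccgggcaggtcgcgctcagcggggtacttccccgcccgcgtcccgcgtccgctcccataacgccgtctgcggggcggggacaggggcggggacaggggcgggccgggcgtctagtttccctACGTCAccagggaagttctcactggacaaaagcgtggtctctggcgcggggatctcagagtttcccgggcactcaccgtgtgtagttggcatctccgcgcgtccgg
BAK1: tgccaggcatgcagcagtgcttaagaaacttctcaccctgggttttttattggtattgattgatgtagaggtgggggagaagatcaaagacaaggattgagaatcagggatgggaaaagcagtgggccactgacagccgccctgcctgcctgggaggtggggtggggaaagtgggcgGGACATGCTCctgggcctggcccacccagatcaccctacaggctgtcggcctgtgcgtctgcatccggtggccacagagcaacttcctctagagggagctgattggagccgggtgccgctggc
BCL2A1: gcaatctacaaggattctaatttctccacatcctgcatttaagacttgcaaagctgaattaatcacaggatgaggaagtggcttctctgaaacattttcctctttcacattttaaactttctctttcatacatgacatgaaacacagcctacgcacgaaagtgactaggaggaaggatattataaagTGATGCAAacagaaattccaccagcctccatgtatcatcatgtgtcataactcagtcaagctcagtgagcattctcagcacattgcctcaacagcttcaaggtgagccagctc

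The match in PMAIP1 began at position -56 from the start, that in BAK1 at -73 and that in BCL2A1 at -63. Among 34796 promoters of the same length, 8.0% held TGACGT, 6.7% the p53 decamer and 3.6% TGATGNAA. Whether the members hold more matches than these shares would give was not tested. The windows of BBC3, BAX, BCL2, BCL2L11, BCL2L1 and BID held none of these letters, which says nothing of sites outside them, and MCL1 is named only.

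Total counts were 30789887 to 76648552 in TPC1, and K1 libraries held 28888686 to 37161241. Levels are given as CPM, a count scaled by the total of its library, and fold changes come from edgeR's quasi-likelihood test on TMM-scaled counts, with p adjusted by Benjamini-Hochberg over all genes tested in a line. Calls required an adjusted p under 0.05 together with a fold change above 1.5. MDM2, the ligase that p53 induces against itself, rose 4.96 ± 0.11 (SE, log2) with nutlin in TPC1 and 3.05 ± 0.07 in K1. Of the thyroid markers, PAX8 had a mean of 326 CPM in TPC1 and 770.4 CPM in K1 under DMSO, whereas TSHR was listed at 0 in all libraries and SLC5A5 and NKX2-1 stayed under 1 CPM. The T cell gene CD3E was at 0 in every library. CD68, a lysosomal protein that marks macrophages, had 34.2 and 36.5 CPM under DMSO in TPC1 and 66.3 and 71.7 CPM with nutlin, and 54.8 to 75.5 CPM in K1. The sum of the 5 epithelial markers rested on KRT8 and KRT18, since KRT19, EPCAM and CDH1 were under 1 CPM in both lines. In TPC1 this sum fell from 789.9 to 909.7 CPM under DMSO to 413.8 to 474.6 CPM in the combination. It was already lower with nutlin alone in TPC1, at no more than 630.9 CPM. In K1 the combination libraries, at 919.7 to 985.2 CPM, also lay below the DMSO libraries, while the nutlin libraries lay within the DMSO range. What part these falls have in the results was not tested.

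Untreated cells of both lines held most transcript of BAX, MCL1 and BCL2L1. Per kb of transcript, BAX stood at 141 CPM in TPC1 and 158 CPM in K1, MCL1 at 112 and 109.5 CPM, and BCL2L1 at 82.7 and 54.4 CPM. In TPC1 these were followed by BAK1, BID, PMAIP1, BBC3, BCL2L11, BCL2A1 and BCL2, down to 0.520 CPM per kb. In K1 the order was BCL2A1, BAK1, BID, PMAIP1, BBC3, BCL2 and BCL2L11, down to 0.574 CPM per kb. Under DMSO no neighbors in either order overlapped between their libraries. The place of BAX depends on the transcript taken, since its canonical transcript has 795 bases and all its annotated exons together cover 2587 bases.

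The lines differed most in the guardians BCL2A1 and BCL2. BCL2A1 had 0.840 and 0.952 CPM in the DMSO libraries of TPC1 and 19.8 and 23.0 CPM in those of K1, a difference of 4.54 ± 0.20 (SE, log2; edgeR adjusted p = 5.93e-12). BCL2 had 3.85 and 3.31 CPM in TPC1 and 16.9 and 16.5 CPM in K1, 2.23 ± 0.13 higher on the log2 scale (edgeR adjusted p = 2.29e-10). The reverse held for BCL2L11, with 11.0 and 10.8 CPM in TPC1 and 3.21 and 2.64 CPM in K1, and for BID and BAK1, whose differences were -0.90 ± 0.11 and -0.69 ± 0.07. BCL2L1 was also called lower in K1 at -0.61 ± 0.08, a difference that came to -0.54 without DMSO replicate 1 of K1 and -0.53 without DMSO library 3 of TPC1 and was then below the fold threshold. In all, 2 members were called higher and 4 lower in K1, beside 25% and 21.2% of all 16738 genes tested in both lines. Line, culture medium and series of libraries cannot be told apart in these starting levels. Line and medium cannot be told apart in the response differences between lines given below either.

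**Figure D1:**
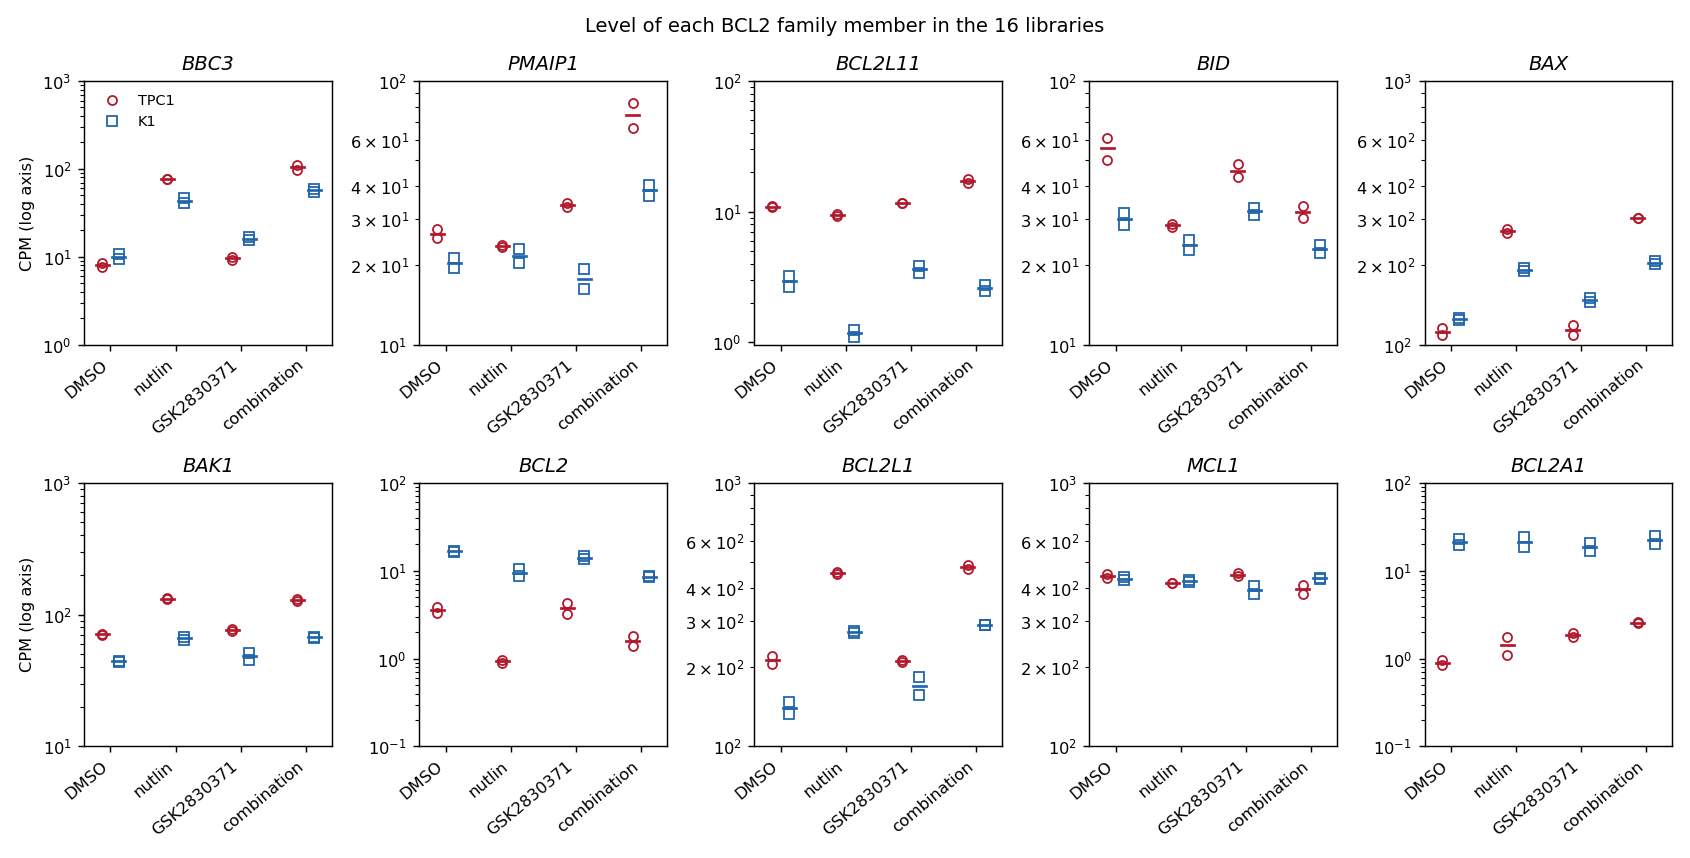
CPM (log axis, with its own range for each gene) of the 10 members in each of the 16 libraries, by treatment, with TPC1 as red circles, K1 as blue squares and the mean of 2 libraries as a bar. BBC3 rises with nutlin in both lines, PMAIP1 is highest in the combination, MCL1 stays between 377 and 454 CPM, and BCL2A1 separates the lines in every treatment.

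Nutlin moved members on both sides of the family. In TPC1, 5 members were called higher and 2 lower than under DMSO, beside 17.5% and 18% of all genes tested. In K1, 4 members were called higher and 2 lower, beside 3.84% and 5.43%. The 4 members called higher in both lines were BBC3, BAX, BAK1 and BCL2L1, and BCL2 was called lower in both. The median log2 fold change over the 10 members was 0.35 in TPC1 and 0.05 in K1, and over all genes tested it was -0.0018 and -0.0017.

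BBC3 (chr19:47724079-47736023 in GRCh37, minus strand), which encodes PUMA, an inhibitor of every guardian, had the largest change among the members. It stood at 7.72 and 8.60 CPM in the DMSO libraries of TPC1 and at 77.0 and 77.6 CPM in the nutlin libraries. K1 had 10.7 and 9.39 CPM under DMSO and 40.8 and 46.5 CPM with nutlin. The groups lay far apart in both lines, by 9.64-fold in TPC1 (3.27 ± 0.11 on the log2 scale; edgeR adjusted p = 3.51e-08) and 4.40-fold in K1 (2.14 ± 0.09; edgeR adjusted p = 1.90e-09).

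PMAIP1 (chr18:57567228-57571537, plus strand), whose product NOXA binds MCL1 and BFL1, did not share that response. Its levels in TPC1 were 27.4 and 25.3 CPM under DMSO and 23.5 and 23.9 CPM with nutlin. In K1 they were 21.2 and 19.5 CPM under DMSO and 23.0 and 20.5 CPM with nutlin, so that the groups overlapped. The log2 fold changes were -0.12 ± 0.11 in TPC1 and 0.10 ± 0.09 in K1, and neither was called (edgeR adjusted p = 0.400 and 0.442). A correction for GC content and length turned the TPC1 value to 0.16, still uncalled.

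The other BH3-only genes went down or stayed. BCL2L11 (chr2:111876955-111926021, plus strand), which encodes BIM, fell in K1 from 3.21 and 2.64 CPM to 1.25 and 1.10 CPM, a log2 fold change of -1.31 ± 0.20 (edgeR adjusted p = 0.000201) that rests on 36 counts in each nutlin library. In TPC1 it had 11.0 and 10.8 CPM under DMSO and 9.65 and 9.26 CPM with nutlin and was not called. BID (chr22:18216904-18257536, minus strand), which links death receptors to mitochondria once caspase-8 cleaves it, fell in TPC1 from 50.3 and 60.9 CPM to 28.0 and 28.8 CPM, or by 0.94 ± 0.12 on the log2 scale (edgeR adjusted p = 0.000112). In K1 its 28.5 and 31.6 CPM under DMSO compared with 25.0 and 22.8 CPM with nutlin, at -0.32 ± 0.08 (edgeR adjusted p = 0.00762), below the fold threshold.

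Both effectors, the genes of the pore-forming proteins, rose in each line. BAX (chr19:49458072-49465055, plus strand) went from 109 and 115 CPM to 274 and 265 CPM in TPC1, or 2.46-fold (1.30 ± 0.08 on the log2 scale; edgeR adjusted p = 1.15e-06). In K1 it went from 124 and 127 CPM to 191 and 195 CPM, or 1.55-fold (0.63 ± 0.05; edgeR adjusted p = 7.62e-07). BAK1 (chr6:33540324-33548070, minus strand) had 70.2 and 71.7 CPM under DMSO and 133 and 132 CPM with nutlin in TPC1, a log2 fold change of 0.93 ± 0.07 (edgeR adjusted p = 4.00e-06). Its change in K1, from 44.6 and 43.8 CPM to 64.6 and 68.1 CPM, was 0.60 ± 0.07 (edgeR adjusted p = 1.62e-05), just past the fold threshold of 0.585 on that scale. Without nutlin replicate 2 of K1 the BAK1 value was 0.55 and was not called.

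Among the guardians, BCL2L1 rose and BCL2 fell. BCL2L1 (chr20:30252255-30311792, minus strand) had 205 and 220.1 CPM under DMSO and 457 and 452 CPM with nutlin in TPC1, a 2.18-fold rise (1.13 ± 0.07 on the log2 scale; edgeR adjusted p = 1.73e-06). In K1 it went from 133 and 147 CPM to 269 and 274 CPM, or 1.96-fold (0.97 ± 0.07; edgeR adjusted p = 3.05e-07). In TPC1 this took BCL2L1 past MCL1, to 176 against 106 CPM per kb, and in K1 the 2 guardians reached 106 and 107 CPM per kb and overlapped. The counts do not separate BCL-xL from the short BCL-xS product of the same gene.

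BCL2 (chr18:60790579-60987361, minus strand) fell in TPC1 from 3.85 and 3.31 CPM to 0.974 and 0.891 CPM, a log2 fold change of -1.91 ± 0.22 (edgeR adjusted p = 8.24e-05). In K1 it fell from 16.9 and 16.5 CPM to 10.3 and 8.59 CPM, at -0.81 ± 0.10 (edgeR adjusted p = 2.26e-05). K1 with nutlin thus still held more BCL2 transcript than untreated TPC1.

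MCL1 (chr1:150533371-150552214, minus strand), a guardian with a short-lived protein, was the member that varied least. Its lowest and highest levels were 379 and 454 CPM in TPC1 and 377 and 438 CPM in K1. With nutlin it had 417 and 417 CPM in TPC1, against 452 and 435 CPM under DMSO, and the log2 fold change was -0.06 ± 0.08. Over 17 alternatives of processing that value lay between -0.09 and 0.04 in TPC1, and the K1 value between -0.04 and 0.04, with no call. In the GENCODE annotation, MCL1 shares 328 exon bases on its strand with ADAMTSL4-AS1. What this did to its counts, which were made on another annotation, was not tested.

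BCL2A1 (chr15:80253234-80263538, minus strand) was at the edge of detection in TPC1, with 31 and 69 counts under DMSO. Its levels there were 0.840 and 0.952 CPM under DMSO and 1.10 and 1.77 CPM with nutlin, a log2 fold change of 0.75 ± 0.25 (edgeR adjusted p = 0.0301). That call was lost without DMSO library 1 (0.67), without DMSO library 3 (0.88) and without nutlin library 3 (0.32), and in DESeq2's test (0.74, adjusted p = 0.0586). K1, with more of the transcript, had 19.8 and 23.0 CPM under DMSO and 24.0 and 18.4 CPM with nutlin, which overlapped.

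**Figure D2:**
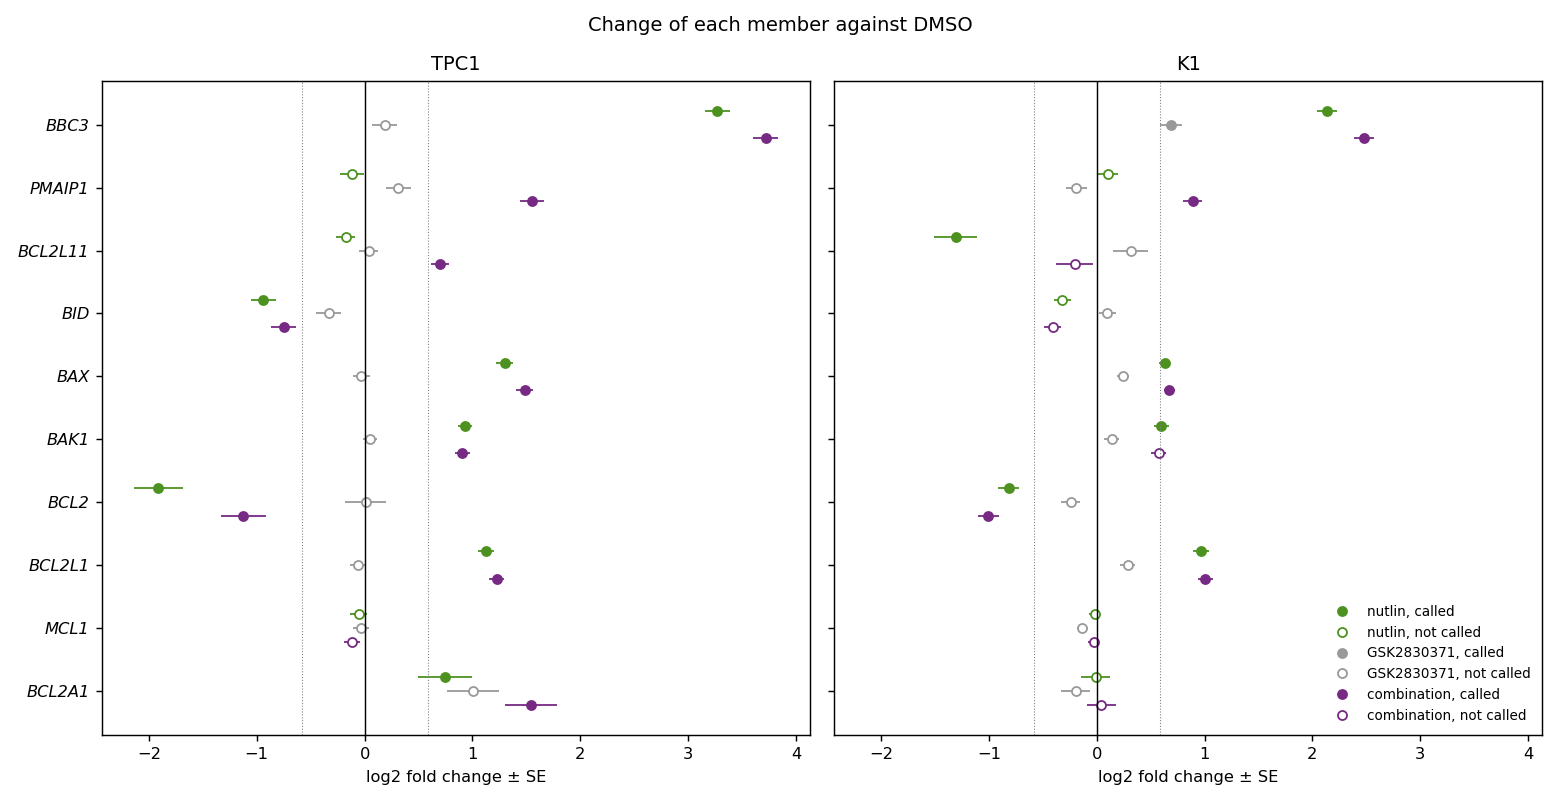
Log2 fold change against DMSO (x axis, with SE bars) of each member in TPC1 and K1 for nutlin (green), GSK2830371 (gray) and the combination (purple), where filled points are called and dotted lines mark a 1.5-fold change. BBC3 lies farthest to the right in both lines, BCL2 lies to the left with nutlin and the combination, and the gray points lie near 0 except BBC3 in K1 and BCL2A1 in TPC1.

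GSK2830371 alone moved little of the family. None of the 10 members was called in TPC1 by the edgeR fit reported here, which leaves the libraries unpaired. Of all genes tested, 0.72% were called higher and 0.681% lower there. Of the members, 3 had an unadjusted p under 0.05 in that fit, and DESeq2 called 1, BCL2A1. That gene had 1.77 and 1.97 CPM with GSK2830371 against 0.840 and 0.952 CPM under DMSO, a log2 fold change of 1.01 ± 0.24 (edgeR adjusted p = 0.0598). With the replicate block, the fit that pairs TPC1 libraries by their number, the BCL2A1 value was 1.01 and was called (edgeR adjusted p = 0.00475). BCL2A1 was also called by edgeR with library size alone, with no filter and with the GC content and length correction. In K1, BBC3 was the one member called higher, beside 0.736% of all genes tested, and 0 were called lower by edgeR or DESeq2, beside 1.5%, with 2 at an unadjusted p under 0.05 in that direction. BBC3 had 15.4 and 16.7 CPM with GSK2830371 against 10.7 and 9.39 CPM, a log2 fold change of 0.69 ± 0.10 (edgeR adjusted p = 0.000781), and came to 0.52, uncalled, after correction for GC content and length. BAX at 0.24 ± 0.05 (edgeR adjusted p = 0.00565) and BCL2L1 at 0.29 ± 0.07 (edgeR adjusted p = 0.0141) passed the test in K1 but not the fold threshold. PMAIP1 had 34.6 and 33.3 CPM in TPC1 and 16.3 and 19.3 CPM in K1 with GSK2830371, at 0.31 ± 0.11 and -0.19 ± 0.09 on the log2 scale, with no call.

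To see what GSK2830371 adds to nutlin, the combination was set against nutlin alone, and PMAIP1 and BCL2L11 rose in both lines. In TPC1, 4 members were called higher and 0 lower, beside 6.46% and 5.66% of all genes tested. In K1, 2 were called higher and 0 lower, beside 1.16% and 1.52%. DESeq2 also called 0 lower in either line, and 0 had an unadjusted edgeR p under 0.05 in that direction.

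PMAIP1 had 66.4 and 82.2 CPM in the combination libraries of TPC1, where nutlin alone left 23.5 and 23.9 CPM. That was 3.18-fold more (1.67 ± 0.11 on the log2 scale; edgeR adjusted p = 3.38e-05). In K1 the combination gave 36.7 and 40.4 CPM and nutlin alone 23.0 and 20.5 CPM, or 1.72-fold more (0.78 ± 0.09; edgeR adjusted p = 0.000159). No library without both drugs reached these levels, the nearest being 34.6 CPM in TPC1 and 23.0 CPM in K1. The interaction, which is the effect of nutlin with GSK2830371 less its effect without, called 2 members higher and 0 lower in TPC1, beside 2.82% and 3.5% of all genes tested, and 1 higher and 0 lower in K1, beside 1.79% and 0.654%. DESeq2 also called 0 lower, and the members lower at an unadjusted edgeR p under 0.05 were 0 in TPC1 and 3 in K1. For PMAIP1 it was 1.36 ± 0.16 in TPC1 (edgeR adjusted p = 0.00219) and 0.97 ± 0.13 in K1 (edgeR adjusted p = 0.00362). The K1 interaction was 0.90 without nutlin replicate 2, with an edgeR adjusted p of 0.0510.

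BCL2L11 had 17.7 and 16.6 CPM in the combination and 9.65 and 9.26 CPM with nutlin in TPC1, a log2 fold change of 0.88 ± 0.09 (edgeR adjusted p = 0.000199). In K1 the combination gave 2.45 and 2.73 CPM and nutlin 1.25 and 1.10 CPM, at 1.10 ± 0.20 (edgeR adjusted p = 0.00379). The 2 lines reached this rise from different starts. TPC1 went above its DMSO libraries of 11.0 and 10.8 CPM, and K1 came back to a range that overlapped its DMSO libraries of 3.21 and 2.64 CPM. Without nutlin replicate 2 the K1 value was 1.02 with an edgeR adjusted p of 0.0558. The interaction was 0.84 ± 0.12 in TPC1 (edgeR adjusted p = 0.00500) and 0.79 ± 0.26 in K1, where it was not called (edgeR adjusted p = 0.0834).

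BBC3 gained less. It had 96.2 and 112 CPM in the combination in TPC1 and 54.7 and 59.5 CPM in K1, above every nutlin library of its line. The log2 fold changes against nutlin were 0.45 ± 0.10 (edgeR adjusted p = 0.0117) and 0.34 ± 0.08 (edgeR adjusted p = 0.0166), both below the fold threshold.

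BCL2 and BCL2A1 were called in TPC1 at few counts. BCL2 had 1.79 and 1.40 CPM in the combination and 0.974 and 0.891 CPM with nutlin, at 0.79 ± 0.24 on the log2 scale (edgeR adjusted p = 0.0400). BCL2A1 had 2.58 and 2.53 CPM against 1.10 and 1.77 CPM, at 0.80 ± 0.23 (edgeR adjusted p = 0.0312). The BCL2 call was lost without either combination library (0.64 and 0.96) or either nutlin library (0.84 and 0.71), and the BCL2A1 call without combination library 1 (0.80), combination library 3 (0.79) or nutlin library 1 (0.55). With the replicate block the interaction of BCL2 in TPC1, 0.78 ± 0.31 without it, was 0.76 and was called (edgeR adjusted p = 0.0347), and with the GC content and length correction it was 0.86 and called, both alone (edgeR adjusted p = 0.0446) and with the block (edgeR adjusted p = 0.0176). The interaction of BID there, 0.52 ± 0.16, was 0.66 and called without DMSO library 1.

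The effectors and the abundant guardians stayed near their nutlin levels. BAX had 302 and 303 CPM in the combination in TPC1 and 207 and 203 CPM in K1, BAK1 130.5 and 126 CPM in TPC1 and 68.2 and 66.3 CPM in K1. BCL2L1 had 487 and 473 CPM in TPC1 and 288 and 288 CPM in K1. The log2 fold changes of these 3 genes against nutlin lay between -0.03 and 0.18, none of them called. For MCL1 they were -0.06 ± 0.08 in TPC1 and -0.01 ± 0.05 in K1.

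**Figure D3:**
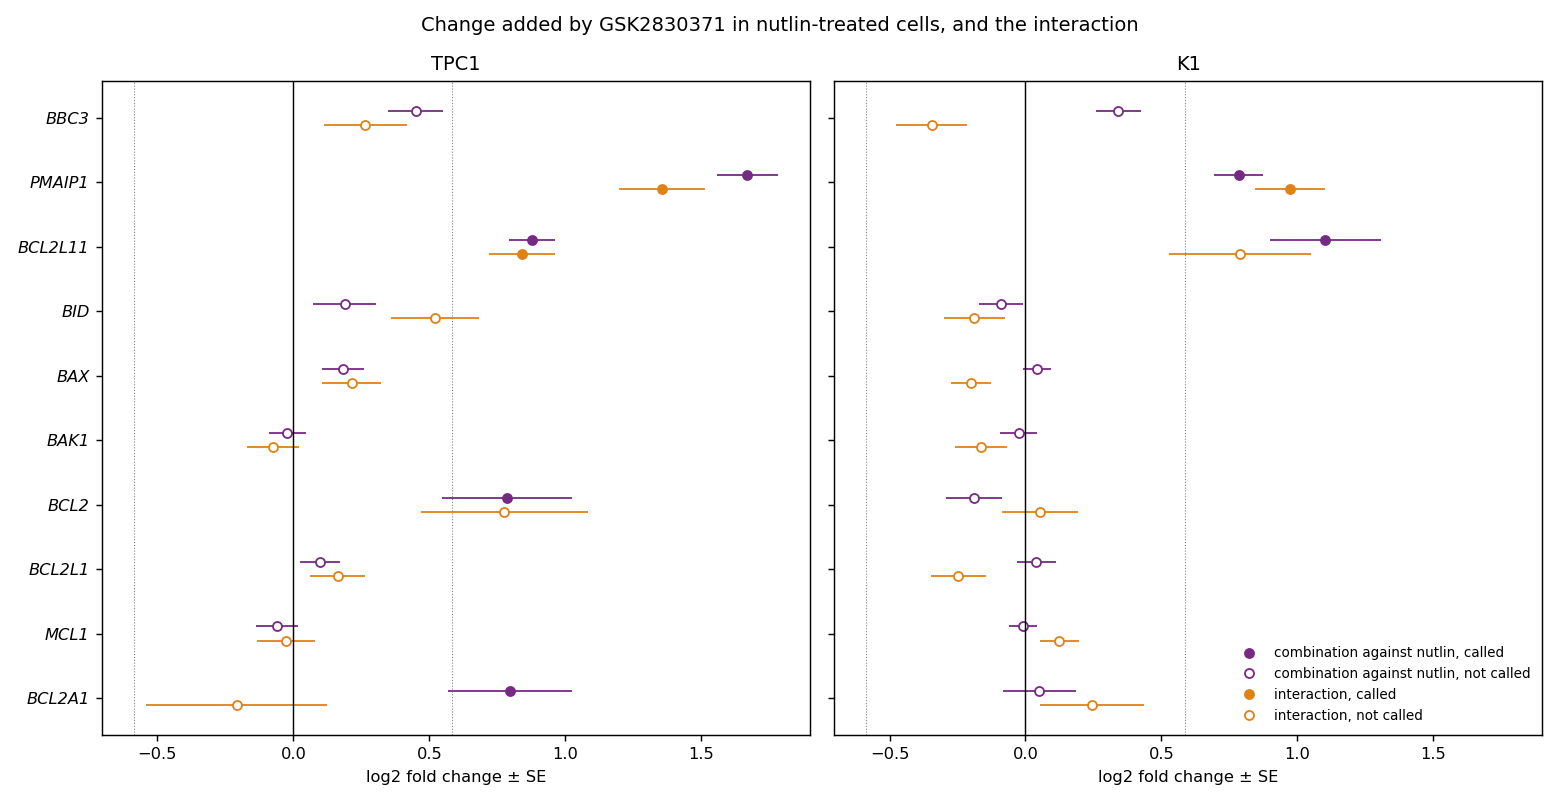
Log2 fold change of the combination against nutlin (purple) and the interaction of the 2 drugs (orange), with SE bars, for each member in TPC1 and K1, where filled points are called and dotted lines mark a 1.5-fold change. PMAIP1 and BCL2L11 lie to the right in both lines, and BAX, BAK1, BCL2L1 and MCL1 lie close to 0.

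Against DMSO, the combination left 7 members called higher and 2 lower in TPC1, beside 22.5% and 21.7% of all genes tested. In K1, 4 were called higher and 1 lower, beside 7.62% and 8.09%. PMAIP1 stood 2.93-fold above DMSO in TPC1 and 1.85-fold in K1, and BBC3 13.2-fold and 5.57-fold. BAX rose 2.80-fold and 1.60-fold, and BCL2L1 2.34-fold and 2.01-fold. BCL2 reached 0.458 and 0.499 of its DMSO level. BID fell by 0.75 ± 0.11 on the log2 scale in TPC1, a call that was lost without DMSO library 3 (-0.58). BAK1 in K1 was 0.57 ± 0.07 (edgeR adjusted p = 1.30e-05), just under the fold threshold, and was called without DMSO replicate 1 (0.59) or combination replicate 2 (0.60), with library size alone (0.61) and with the GC content and length correction, alone or with the block (0.62). With the combination set against GSK2830371, 6 members were called higher and 1 lower in TPC1, beside 19.5% and 19%, and 3 higher and 1 lower in K1, beside 6.3% and 6.75%. BCL2L11 in TPC1, at 0.66 ± 0.08 in that comparison, was 0.56 and uncalled with library size alone, and in K1, at -0.52 ± 0.17, it was -0.60 and called without GSK2830371 replicate 2. BAK1 in K1, at 0.43 ± 0.07 there, was 0.63 and called with the GC content and length correction, alone or with the block.

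BBC3 and BAX responded less to nutlin in K1 than in TPC1, and BCL2L11 and BCL2 also differed, when the difference itself was tested over all 16 libraries. For nutlin, 2 members were called higher and 3 lower in K1 less TPC1, beside 8.73% and 10.5% of all genes tested. The difference was -1.16 ± 0.16 on the log2 scale for BBC3 (edgeR adjusted p = 4.14e-05), -1.17 ± 0.19 for BCL2L11 (edgeR adjusted p = 0.000213) and -0.70 ± 0.10 for BAX (edgeR adjusted p = 7.73e-05). For BCL2, which fell more in TPC1, it was 1.06 ± 0.22 (edgeR adjusted p = 0.00164). For BID it was 0.59 ± 0.16, next to the fold threshold, and with the replicate block it was 0.58 and uncalled. The BID call was also lost without DMSO replicate 1 (0.52), combination replicate 1 (0.56) or nutlin replicate 1 (0.54) of K1 and without nutlin library 1 (0.56), DMSO library 3 (0.41) or combination library 3 (0.56) of TPC1. BCL2A1, at -0.81 and uncalled, was called at -0.82 with the block, at -0.77 by DESeq2, and without combination replicate 1 (-0.83), combination replicate 2 (-0.80) or nutlin replicate 1 (-0.99) of K1 or nutlin library 1 (-1.03) of TPC1.

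From nutlin to the combination PMAIP1 gained less in K1, with a difference of -0.88 ± 0.15 on the log2 scale (edgeR adjusted p = 0.00204). It and BCL2, at -0.96 ± 0.24 (edgeR adjusted p = 0.0198), were the 2 members called lower, beside 2.56% of all genes tested, and 0 were called higher, beside 2.56%, by either edgeR or DESeq2 or at an unadjusted edgeR p under 0.05. BCL2L11 was not called between the lines in this comparison. The BCL2 difference lost its call without combination replicate 1 (-0.96), combination replicate 2 (-0.98) or nutlin replicate 1 (-0.84) of K1 and without combination library 1 (-0.82) or nutlin library 3 (-0.89) of TPC1. With the replicate block BCL2A1 was also called, at -0.72. For GSK2830371, 1 member was called lower, BCL2A1 at -1.20 ± 0.29 (edgeR adjusted p = 0.0328), beside 1.58%, and 0 higher, beside 0.597%, where DESeq2 also called 0 and 4 had an unadjusted edgeR p under 0.05. That call was lost without DMSO replicate 1 (-1.30), DMSO replicate 2 (-1.09), GSK2830371 replicate 1 (-1.35) or GSK2830371 replicate 2 (-1.06) of K1 and without GSK2830371 library 1 (-1.27), DMSO library 3 (-1.35) or GSK2830371 library 3 (-1.07) of TPC1. Without DMSO library 1 of TPC1, BBC3 and BID were called as well, both at 0.59. For the combination against DMSO, 5 members were called lower and 0 higher, beside 13.8% and 11.9%, with 0 higher by DESeq2 or at an unadjusted edgeR p under 0.05, and these were BBC3, PMAIP1, BCL2L11, BAX and BCL2A1. PMAIP1 there, at -0.69 ± 0.15, was -0.54 and uncalled without combination library 3 of TPC1.

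Summed per kb of transcript, the members that promote death gained on those that protect with nutlin and the combination. The size of that gain, and in K1 its sign, depends on counting MCL1, as given below. The sum of the 6 death-promoting members over that of the 4 protecting ones was 1.12 ± 0.0424 (SD, n = 2) under DMSO and 1.65 ± 0.0226 with nutlin in TPC1. It was 1.13 ± 0.053 with GSK2830371 and 1.91 ± 0.0318 in the combination. In K1 the ratio was 1.08 ± 0.0163 under DMSO, 1.32 ± 0.0523 with nutlin, 1.26 ± 0.00212 with GSK2830371 and 1.39 ± 0.012 in the combination. The nutlin and combination libraries of each line lay above its DMSO libraries, and in K1 the GSK2830371 libraries did as well.

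Both sums rose with nutlin. In TPC1 the death-promoting sum went from 219.6 ± 9.39 to 469 ± 7.84 CPM per kb, 2.14-fold, and the protecting sum from 197 ± 1.02 to 284 ± 0.904 CPM per kb, 1.45-fold. In K1 these folds were 1.53 and 1.25. BAX made up 62.9% to 72.6% of the death-promoting sum in TPC1 and 72.9% to 77.1% in K1, and MCL1 and BCL2L1 nearly all of the protecting sum in TPC1. These shares and ratios use canonical transcripts, which for BAX means 795 bases where all its exons cover 2587. Which of the 2 sums is larger under DMSO therefore depends on the lengths taken. The shift in the log2 ratio, 0.57 with nutlin in TPC1 and 0.30 in K1, depends on the genes summed and their weights. Left without MCL1 it was 0.015 in TPC1 and -0.059 in K1, and left without BAX, an alternative chosen after seeing the data, it was 0.20 in TPC1. Taken as a mean of log2 CPM, which weighs each member of a side alike, it was 0.75 in TPC1. Neither leaving out BAX nor that mean moved the K1 value beyond its spread between libraries. RNA sums give no protein ratio.

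**Figure D4:**
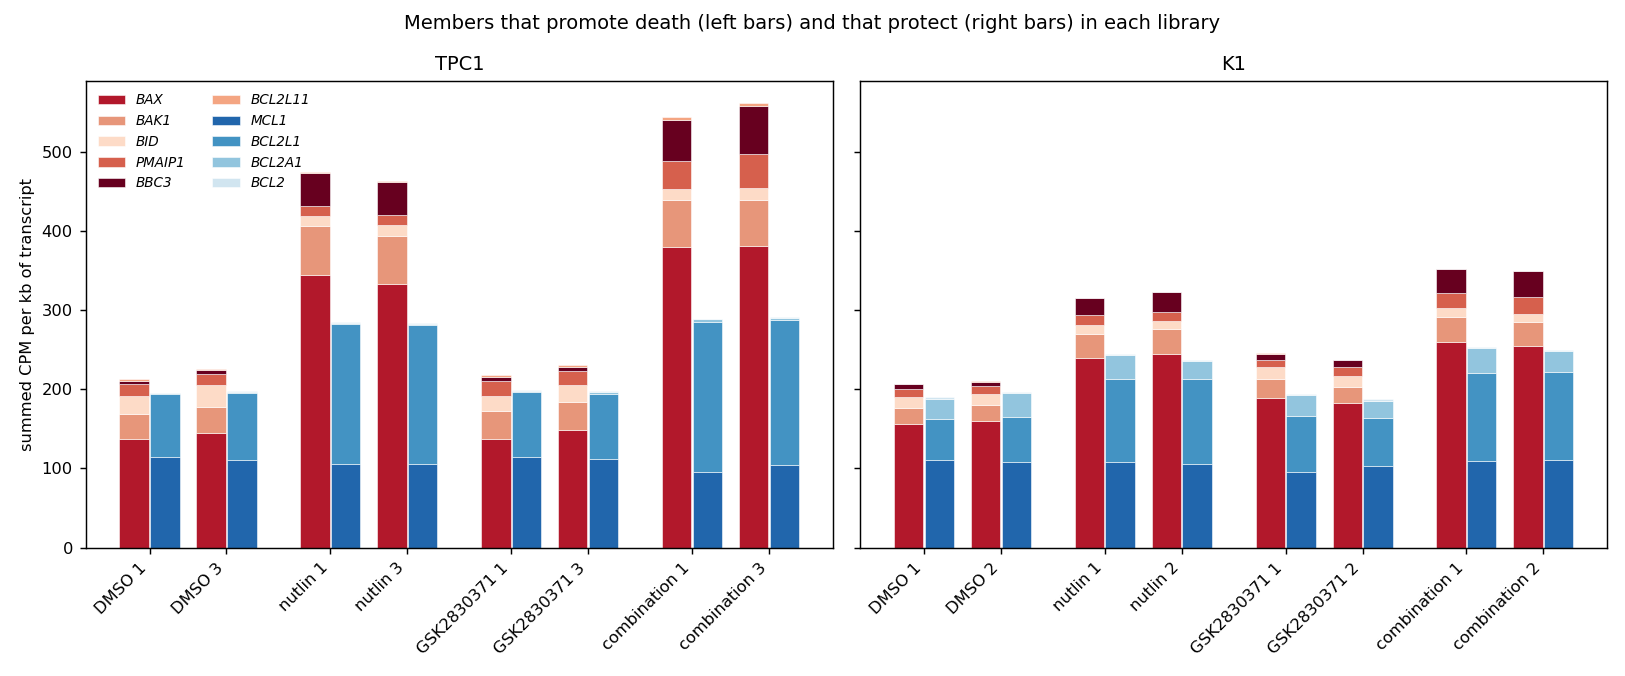
Summed CPM per kb of transcript in each library, with the 6 death-promoting members stacked in reds in the left bar and the 4 protecting members in blues in the right bar of each pair. BAX fills most of the left bars, and BCL2L1 widens the right bars with nutlin while MCL1 keeps its height.

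Other genes of the mitochondrial pathway were called about as often as all genes with nutlin in TPC1, where 17.5% of all genes tested were higher and 18% lower. Of 8 other BCL2 family genes tested in TPC1, 1 was called higher with nutlin, BCL2L13 at 0.71 ± 0.07 on the log2 scale, and 1 lower, BCL2L12 at -1.61 ± 0.11. In K1, where 3.84% of all genes tested were higher and 5.43% lower, BCL2L12 was the 1 gene called of 7, at -0.89 ± 0.07. Of 16 genes of the apoptosome, the caspases and the proteins released from mitochondria, 4 were called higher and 3 lower with nutlin in TPC1, and 2 higher and 1 lower in K1. CASP10, an initiator caspase of death receptors, rose by 2.01 ± 0.12 in TPC1 and 0.77 ± 0.11 in K1. APAF1, the scaffold of the apoptosome, rose by 1.40 ± 0.11 and 0.62 ± 0.07. CASP6, an executioner, rose by 0.84 ± 0.11 in TPC1, CYCS, which encodes cytochrome c, fell by 0.88 ± 0.09 there, and CASP2, a caspase activated by the PIDDosome, was called lower in both lines, at -0.79 ± 0.08 in TPC1 and -0.75 ± 0.07 in K1. None of these 16 genes was called between the combination and nutlin in either line by edgeR, where 3 were higher and 3 lower in TPC1 and 2 higher and 4 lower in K1 at an unadjusted p under 0.05. Over all genes tested, 6.46% were called higher and 5.66% lower in TPC1 in that comparison, and 1.16% and 1.52% in K1, so that 0 of 16 does not set the list apart.

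Among 6 inhibitors of apoptosis tested in each line, BIRC5, which encodes survivin and is transcribed mainly in dividing cells, fell by 4.22 ± 0.10 on the log2 scale with nutlin in TPC1 and by 0.96 ± 0.10 in K1. The combination set it a further 1.05 ± 0.10 lower than nutlin in TPC1, with BIRC5 at -0.79 ± 0.11 in K1. BIRC3, a ubiquitin ligase of NF-kB signaling, rose by 0.77 ± 0.16 with nutlin in TPC1 and was at -0.74 ± 0.16 in the combination against nutlin. ATF3 and DDIT3, factors of the integrated stress response, were 2.84 ± 0.14 and 3.72 ± 0.15 higher in the combination than with nutlin in TPC1. In K1 these genes were 1.49 ± 0.29 and 0.81 ± 0.09 higher. The authors describe ATF3 as a direct target of p53 as well. Mean ATF4 was 658 CPM under DMSO, 479 CPM with nutlin and 1009 CPM in the combination in TPC1. In K1 mean ATF4 was 396, 335 and 781 CPM in that order.

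Genes with the most similar pattern were sought over the 16 libraries, on log2 CPM centered within each line, among 9838 genes. BBC3 ran closest to FDXR (Pearson r = 0.999), CDKN1A (0.997) and CMBL (0.996), of which FDXR and CDKN1A are known p53 targets. PMAIP1 had lower values, 0.960 with TBRG1, 0.940 with TSC22D3 and 0.934 with DNAJC24. BCL2L1 ran with IP6K2 (0.995), BTG2 (0.994) and TSKU (0.991), and MCL1 with DLD (0.951), NRD1 (0.911) and SAR1B (0.907). Points of a library share its depth and treatment, so these values describe likeness over 8 groups.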

How the data were processed

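The deposited values are raw read counts per gene symbol, for 16 libraries of stranded polyadenylated RNA. Per the labels and methods, the authors aligned reads to GRCh37 (hg19) with TopHat2 2.0.13 and counted them with HTSeq 0.6.1. The authors state for the study as a whole that replicates were independent biological preparations, and that plates were given to treatments at random. The labels add nothing on separate cultures of single libraries. TPC1 columns are numbered 1 and 3, whereas the labels number the TPC1 replicates 1 and 2 and name no replicate 3. Columns numbered 3 were assigned to their treatment only. The members and the gene lists were chosen with earlier results of these data known.

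Counts were fitted in edgeR 4.0.16 (R 4.3.3), with TMM scaling and the quasi-likelihood test, jointly over the 8 libraries of a line, for genes above 0.1 CPM in at least 2 libraries (15273 in TPC1, 15900 in K1). All 10 members passed in both lines. Differences between lines were fitted over 16 libraries and 16738 genes. SE is the log2 fold change divided by the square root of F. Scaling factors ran from 0.961 to 1.04 in TPC1 and 0.981 to 1.03 in K1. Transcript lengths came from GENCODE on GRCh37, with the canonical or else the longest transcript. Symbols matched for 21247 genes, or 83.8%. DESeq2 1.42.0 served as an alternative, Python 3.11.15 for tables and plots. The steps were tested on simulated data.

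All members were named. From each pathway list and line, up to 4 genes called with nutlin, or in the combination against nutlin, were named by size of change, and 3 genes per likeness search. Replicate numbers group the TPC1 libraries: the log2 difference between the 2 columns correlated across treatments with r from 0.448 to 0.616 over 12303 genes. Columns numbered 3 hold 62853375 to 76648552 counts and those numbered 1 hold 30789887 to 36896529, so replicate and depth cannot be told apart there. In K1, r ran from -0.321 to 0.335 over 12546 genes, so the number pairs nothing in that line. Other alternatives replaced the scaling, the filter, the test or the joint fit, corrected for GC content and length, or left out each library. Some marker genes are not reported here.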

Additional observations from a re-analysis of the deposited data

Results flagged for a closer look

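Response differences between the lines, K1 less TPC1 on the log2 scale, were called for 13 values. These passed both the test of the difference itself (edgeR, adjusted over 16738 genes) and the fold threshold. With nutlin these were BBC3 at -1.16, BCL2L11 at -1.17, BID at 0.59, BAX at -0.70 and BCL2 at 1.06. Of all genes tested, 8.73% were called higher and 10.5% lower there. With GSK2830371 the one value was BCL2A1 at -1.20, beside 1.58% of all genes tested called lower and 0.597% higher. In the combination against nutlin they were PMAIP1 at -0.88 and BCL2 at -0.96, beside 2.56% of all genes tested in each direction. In the combination against DMSO they were BBC3 at -1.26, PMAIP1 at -0.69, BCL2L11 at -0.93, BAX at -0.84 (edgeR adjusted p = 8.80e-06) and BCL2A1 at -1.51. Of all genes tested, 13.8% were called lower and 11.9% higher there. This comparison adds that of nutlin to that of the combination against nutlin, so its values are not separate results. BAK1 passed the test but not the fold threshold with nutlin, at -0.37 (edgeR adjusted p = 0.0111). The same held for BAK1 in the combination against DMSO, at -0.36 (edgeR adjusted p = 0.00965). PMAIP1 in the combination against DMSO was -0.54 without combination library 3 of TPC1 and -0.58 with library size as the only scaling, and was then below the fold threshold. BCL2A1 with GSK2830371 kept its sign but not its call without any 1 of 7 of the libraries compared, at values from -1.06 to -1.35. BID with nutlin lost its call in 8 of 22 alternatives, and BCL2 in the combination against nutlin in 5 of 22.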

How the results depend on the processing

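Counts of called members stayed within 1.5 times the reported count in every alternative run, except the following. With GSK2830371 in TPC1 the 0 members called became 1, BCL2A1, with library size alone, no filter, DESeq2, the replicate block, the GC content and length correction, or both of the latter. In K1 the 1 member called became 0 with the GC content and length correction, with or without the block. In the combination against nutlin in TPC1 the 4 members became 2 in a fit of the compared groups alone and 2 to 4 without a library. Without a library, the count in K1 for that comparison ran from 1 to 2, the K1 interaction from 0 to 1, the line difference for GSK2830371 from 0 to 3 and that for the combination against nutlin from 1 to 2. Causes of these changes were not tested.

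The log2 balance depended on the genes and lengths used. Without MCL1 it changed against DMSO by 0.015 (nutlin) and 0.16 (combination) in TPC1 and by -0.059 (nutlin), 0.088 (GSK2830371) and -0.0047 (combination) in K1. Taken as a mean of log2 CPM it gave 0.75, -0.18 and 0.89 for nutlin, GSK2830371 and the combination in TPC1, and 0.29 for GSK2830371 and 0.66 for the combination in K1. With the union of exons as length, chosen after seeing the data, it gave 0.47 (nutlin) and 0.72 (combination) in TPC1 and 0.21 (GSK2830371) and 0.41 (combination) in K1, and without BAX 0.20 and 0.57 in TPC1 and 0.15 and 0.50 in K1. Without length it gave 0.45 for the combination in K1. Without a library the GSK2830371 value in TPC1 ran from -0.031 to 0.065.

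PMAIP1 turned from -0.12 to 0.16 with nutlin in TPC1 and from -0.19 to 0.11 with GSK2830371 in K1 under the GC content and length correction, with or without the block, at no time called. Of 170 values of a member in a comparison, 75 more were called in no setting and were not followed singly, a restriction chosen after seeing the values. Of these, 26 changed sign in some alternative, from reported sizes of at most 0.209. The pairing of the block changed, besides BCL2A1 with GSK2830371 in TPC1, the calls of BCL2 in the TPC1 interaction (0.76) and of BID (0.58) and BCL2A1 (-0.82 and -0.72) between lines, and no other call. The GC content and length correction alone also called BCL2 in the TPC1 interaction (0.86) and BAK1 in K1 for the combination against DMSO (0.62) and against GSK2830371 (0.63). With 2 libraries a group, members with few counts, BCL2 and BCL2A1 in TPC1 and BCL2L11 in K1, limit what can be told.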
